A study of Mus musculus with 9 samples.

Results

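The Rab GTPases, the SNARE proteins and the factors that tether, dock and prime vesicles were measured in 3 stages of eosinophil formation. All genes whose symbol begins with Rab, Vamp, Stx, Stxbp, Snap, Syt, Sytl or Exoc followed by a digit, or with Unc13, were taken by name from the RNA tables, which gave 138 of 23471 genes on 192 of 31213 transcript lines. Their counts and levels did not enter this rule, which was set with earlier results of these data known. Of the 138 members, 114 passed the filter on low counts and were tested, and the other 24 did not exceed 2.42 CPM (normalised counts, scaled to the size of the library) in any library. Vamp7 was not analysed here.

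All cells came from bone marrow pooled over Balb/c mice at homeostasis, with no treatment in any group. The granulocyte-macrophage progenitors (GMP) were sorted as Lin-, CD34+, CD16/32+ and c-kit high, and the eosinophil progenitors (EoP) as Lin-, CD34+, CD125+ (the interleukin-5 receptor alpha chain) and c-kit low. The eosinophils (Eos) carried Siglec-F and CCR3. Each cell type gave 2 RNA libraries, which the series' design text calls independent sorts, and 1 library of chromatin immunoprecipitated for H3K4me3, a histone mark found at active promoters. The sources used here do not say whether the 2 sorts used different animals, so a p-value measures the spread between these libraries only.

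A secretory vesicle is carried and marked by a Rab GTPase, a switch that recruits effector proteins when it holds GTP. Tethers such as the exocyst hold the vesicle at its target, Munc13 proteins prime it, and Sec1/Munc18 proteins bind the target syntaxin. Fusion follows when a vesicle SNARE (a VAMP) zips together with a syntaxin and a SNAP protein of the target membrane. Eosinophils, mast cells, neutrophils and cytotoxic lymphocytes use versions of this machinery to release stored granule proteins, and inherited loss of human RAB27A, UNC13D, STX11 or STXBP2 impairs the degranulation of cytotoxic lymphocytes.

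The 2 GMP libraries held 6576661 and 5226653 counts, those of EoP 9628492 and 12088134, and those of Eos 10940000 and 10790618. A count above 0 was found for 133 and 137 members in the GMP libraries, 115 and 114 in EoP, and 118 and 123 in Eos. Although they were the shallowest, the libraries of GMP listed the most genes with a count, 19677 and 20542 against 14350 to 16489 in the other 4. The 7 eosinophil granule genes summed to 292 to 1210 CPM in GMP, 190000 to 238000 in EoP and 10500 to 11900 in Eos, and the 3 eosinophil surface genes to 18.2 to 22.4, 696 to 739 and 3200 to 4570 CPM. The 10 measured neutrophil markers, none of them at 0 in any library, summed to 574 to 1950 CPM in GMP, 266 to 619 in EoP and 41500 to 48100 in Eos. From GMP to EoP 1 of them rose and 5 fell, and all 10 rose from EoP to Eos. The 8 mast cell and basophil markers summed to 1130 to 1150 CPM in GMP, 968 and 3970 in EoP and 43.5 to 119 in Eos. Tpsb2 was at 0 in both EoP and both Eos libraries, and Mcpt4 in both EoP libraries and Eos 1. Of the 7 tested, 1 fell from GMP to EoP and 6 fell from EoP to Eos. The 10 activation and dissociation stress genes differed within each cell type, at 476 and 2480 CPM in GMP, 4530 and 36.3 in EoP, and 563 and 2880 in Eos. The 4 genes of the GMP primary granules summed to 39000 to 41800 CPM in GMP, 2330 and 2890 in EoP, and 14600 and 4920 in Eos, and all 4 fell and then rose. The 7 monocyte and macrophage markers summed to 1200 to 1400 CPM in GMP, 146 to 206 in EoP and 408 to 494 in Eos. Of these, 6 fell and 1 rose at the first step, and 3 rose and 1 fell at the second. Of the 6 erythroid markers 5 rose from EoP to Eos (9.60 to 10.1 against 57.7 and 167 CPM), of the 5 B cell markers 4 (18.4 to 24.9 against 47.0 and 116 CPM), and of the 4 T and natural killer cell markers 2 (335 to 341 against 121 and 403 CPM). Of the 5 megakaryocyte and platelet markers 1 rose at the first step and 2 fell at the second (15.4 and 27.9 CPM in GMP, 82.6 and 107 in EoP, 21.3 and 28.3 in Eos). The part of these other cell types, or of the stress genes, in the results that follow was not tested. Fewer cells of a type and less RNA per cell cannot be told apart in these bulk samples.

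From GMP to EoP, Stx3, Rab37 and Stxbp5 rose most, and most of the members that fell had very low counts. Of the 114 members tested, 24 rose (21.1%) and 17 fell (14.9%), against 9.49% higher and 17.1% lower among all 14324 genes tested. The median log2 fold change was 0.10 over the members and -0.07 over all genes. From EoP to Eos, 29 members rose (25.4%) and 6 fell (5.26%), against 19.1% and 17.7% of all genes, with a median of 0.40 for the members and 0.02 for all genes. Both steps share the EoP libraries, and so each comparison's values are given on their own. A gene is said to rise or fall where its adjusted p was under 0.05 by edgeR's quasi-likelihood test with Benjamini-Hochberg adjustment over all genes tested, and every adjusted p below is from that test. With counts scaled to library size alone, which moves the median of all genes by -0.46 at the first step, 7 members rose and 26 fell there (21.2% of the calls higher, against 58.5%), and the 7 were Rab11a, Rab37, Snap23, Stx3, Stxbp5, Sytl1 and Unc13d. By limma on RPKM (reads scaled to transcript length and library size), which moves the median by 0.27 at the first step and by -0.47 at the second, 28 rose and 1 fell (96.6% higher) and then 13 rose and 10 fell (56.5% higher, against 82.9%). The 13 were Exoc6b, Rab11fip1, Rab11fip4, Rab33b, Rab39, Rab7l1, Rab8b, Snap23, Stx11, Stx7, Stxbp3a, Sytl1 and Vamp5. No called member changed direction under these scalings. Both EoP libraries lay above both GMP libraries for 42 members (36.8%, against 31.0% of all genes) and below for 38 (33.3%, against 39.0%). For Eos against EoP 59 members lay above (51.8%, against 35.4%) and 15 below (13.2%, against 35.5%), so a lack of overlap is common among all genes with 2 libraries a group. The members together took 0.585% and 0.555% of the counts in GMP, 0.571% and 0.619% in EoP, and 0.734% and 0.779% in Eos.

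**Figure D1:**
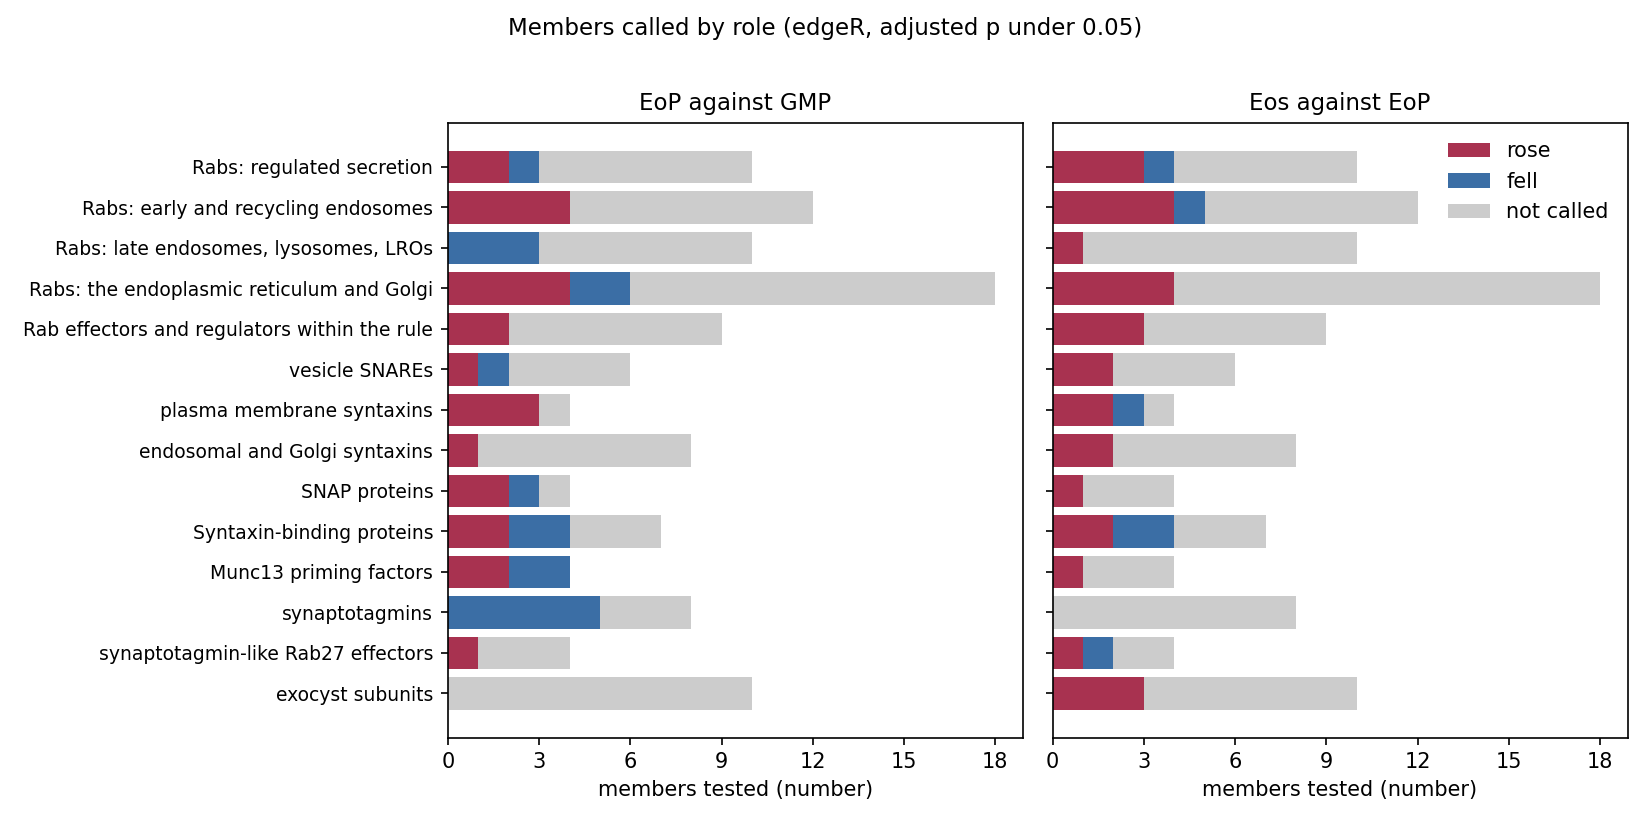
Members tested in each role (bar length, number of genes) that rose, fell or were not called by edgeR at an adjusted p under 0.05, for EoP against GMP (left) and Eos against EoP (right). Synaptotagmins fell at the first step in 5 of 8 cases (62.5%, against 17.1% of all genes), each a gene that passed the filter on low counts through GMP alone. None of the 10 exocyst subunits was called there, against 3 that rose at the second (30.0%, against 19.1% of all genes).

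Of the 7 plasma membrane syntaxins among the members 4 were tested, and each of these was called at a step or both. Stx2, Stx3 and Stx11 rose from GMP to EoP, and Stx4a and Stx11 rose from EoP to Eos, while Stx3 fell at that second step. Among all genes tested 9.49% rose at the first step, and 19.1% rose and 17.7% fell at the second. The list of 4 genes is short, and its difference from these shares was not tested. Stx3, a syntaxin of apical and granule fusion sites, had 34.3 and 25 CPM in the GMP libraries, 498 and 424 in EoP, and 249 and 318 in Eos. The groups did not overlap, and EoP was the highest. The log2 fold change from GMP to EoP was 3.96 ± 0.28 (SE, adjusted p = 4.33e-05), the largest rise of any member at that step, and it was called without each library in turn. The change from EoP to Eos was -0.70 ± 0.24 (adjusted p = 0.0462), and this call was lost without any 1 of GMP 1, GMP 2, EoP 1, EoP 2 or Eos 1 (-0.79 to -0.55, adjusted p 0.0681 to 0.228). Most of its counts were on 1 of its 3 listed transcripts, with 252 and 142 counts in GMP, 3932 and 4494 in EoP, and 2223 and 2415 in Eos.

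Stx11, the syntaxin of cytotoxic granule release, rose at both steps. It had 5.69 and 8.64 CPM in GMP, 15.6 and 17.5 in EoP, and 63.1 and 92.4 in Eos, with no overlap between the groups. The log2 fold changes were 1.21 ± 0.30 (adjusted p = 0.0168) and then 2.23 ± 0.29 (adjusted p = 0.000459). The first call was lost without GMP 1, EoP 1 or EoP 2 (0.94 to 1.32, adjusted p 0.0569 to 0.164), and the second was kept without each library. Stx2, another surface syntaxin, had 14.0 and 12.7 CPM in GMP, 25.4 and 28.5 in EoP, and 35.9 and 40.5 in Eos, and its rise of 1.01 ± 0.25 at the first step was lost without any GMP or EoP library (adjusted p 0.0666 to 0.0959). Stx4a, the broadly expressed surface syntaxin, differed little between GMP (69.7 and 66.0 CPM) and EoP (67.2 and 62.7) and stood at 92.5 and 127 in Eos. Its second-step rise of 0.75 ± 0.23 was lost without every library except Eos 1 (0.51 to 0.79, adjusted p 0.0519 to 0.144). On the RPKM scale, which allows levels of different genes to be compared, Stx4a was the highest surface syntaxin in GMP (17.0 ± 1.08, SD, n = 2) and Stx3 in EoP and Eos (59.9 ± 3.76 and 26.3 ± 0.925). The neuronal Stx1a and the epithelial Stx19 were not tested, being too low.

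The 250 bases before the RefSeq starts of these 2 syntaxins differ in base composition and in where the H3K4me3 peaks lie. They are shown on mm10, 5′ to 3′ on the gene's strand. The capitals mark letters searched for on both strands in the windows below, which were GATAA (the core bound by GATA factors), TTGCNNAA (C/EBP), GAGGAA (PU.1), CACGTG (an E-box) and CCAAT. These 5 patterns do not hold one another, and CACGTG reads the same on both strands.
Stx3, chr19:11819404-11819653, minus strand: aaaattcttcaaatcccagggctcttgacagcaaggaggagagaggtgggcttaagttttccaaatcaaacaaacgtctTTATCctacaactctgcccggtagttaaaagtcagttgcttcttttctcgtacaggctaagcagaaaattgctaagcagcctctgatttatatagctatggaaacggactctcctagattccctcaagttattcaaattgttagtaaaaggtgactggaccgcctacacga
Stx11, chr10:12964260-12964509, minus strand: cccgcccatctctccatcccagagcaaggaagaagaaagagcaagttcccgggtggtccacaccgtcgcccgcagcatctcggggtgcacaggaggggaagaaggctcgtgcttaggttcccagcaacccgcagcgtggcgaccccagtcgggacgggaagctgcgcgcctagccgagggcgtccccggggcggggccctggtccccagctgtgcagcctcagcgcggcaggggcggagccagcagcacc
The Stx3 window was 42.0% G and C with 6 CpG dinucleotides, held 1 GATAA on the reverse strand, 171 to 167 bases before the start, and was overlapped by no peak in any of the 3 lists. Its peaks lay 76, 554 and 112 bases downstream of that start in GMP, EoP and Eos. The highest fold enrichment the authors gave a Stx3 promoter peak came to 8.33 in the GMP list, 7.79 in the EoP list and 7.16 in the Eos list, from lists that cannot be scaled to one another. The Stx11 window was 70.0% G and C with 21 CpG and lay within a peak in all 3 lists. A GATAA stands in 22.6% of all 32851 windows of 250 bases before a RefSeq start, so a match is only a description.

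**Figure D2:**
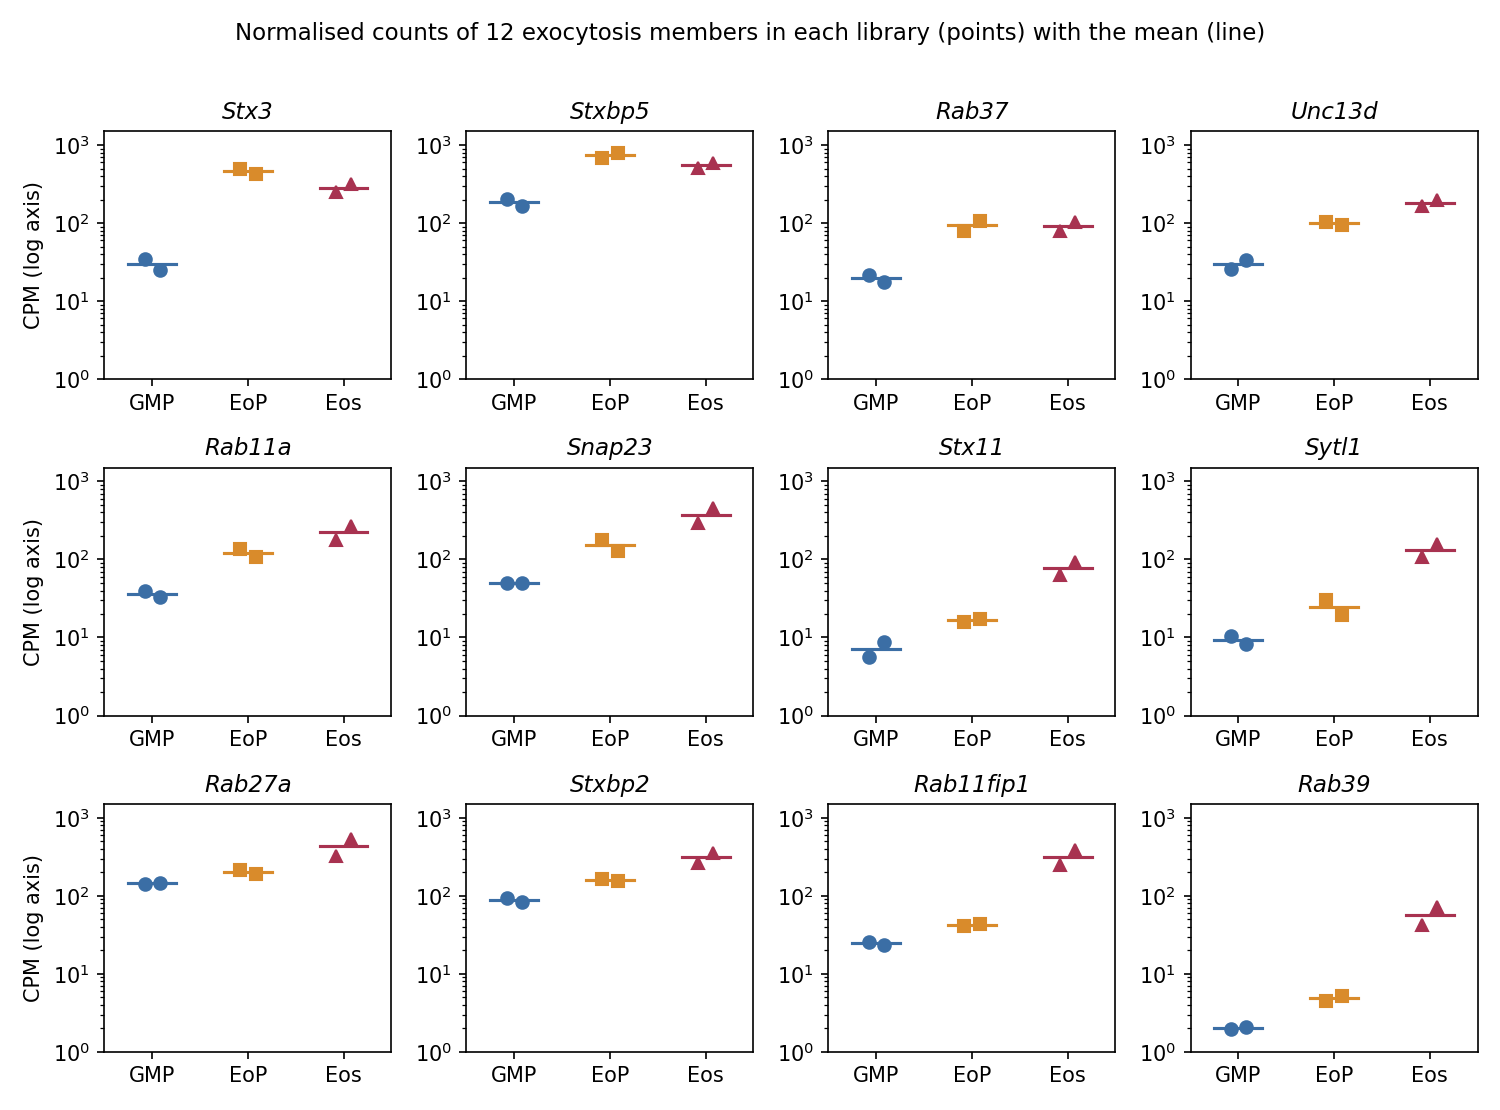
Normalised counts (CPM, log axis) of 12 members in GMP, EoP and Eos, with 1 point per library and a line at the mean of the 2. Stx3 and Stxbp5 are highest in EoP, while Sytl1, Rab11fip1 and Rab39 are several times higher in Eos than in EoP.

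Among the SNAP proteins, Snap23 rose at both steps and Snap29 at the first. Snap23, the non-neuronal partner of the surface syntaxins in mast cells and granulocytes, had 50.6 and 49.6 CPM in GMP, 176 and 129 in EoP, and 291 and 457 in Eos. The 3 groups did not overlap. The log2 fold changes were 1.61 ± 0.28 (adjusted p = 0.00398) and 1.29 ± 0.27 (adjusted p = 0.00504). The first call was lost without GMP 1 (1.63, adjusted p = 0.0559) and the second without EoP 2 (1.11, adjusted p = 0.0549). Its level per length was 8.07 and 7.65 RPKM in GMP, 32.8 and 26.1 in EoP, and 43.7 and 56.3 in Eos, where only Rab7 and Vamp8 were higher among the members. Snap29, which acts on endosomes and autophagosomes, rose by 0.97 ± 0.27 from GMP (40.9 and 31.6 CPM) to EoP (69.8 and 72.8), a call lost without any GMP or EoP library (adjusted p 0.0682 to 0.139). Snap25, the neuronal form, had 19 counts over both GMP libraries and 0 over both EoP libraries. It was thus at least 8.52-fold lower in EoP against a floor of 3 counts over the group. This call was lost without GMP 2, EoP 1 or EoP 2, and without GMP 1 the gene was too low to be tested.
Snap23, chr2:120567421-120567670, plus strand: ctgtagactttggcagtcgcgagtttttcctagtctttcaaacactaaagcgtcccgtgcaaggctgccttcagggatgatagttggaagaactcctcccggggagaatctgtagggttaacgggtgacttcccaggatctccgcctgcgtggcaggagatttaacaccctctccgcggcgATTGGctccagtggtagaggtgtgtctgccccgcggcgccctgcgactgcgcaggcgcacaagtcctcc
This window before the Snap23 start is shown because peaks flanked it differently in the lists. Peaks covered 173 of its 250 bases in GMP, 105 in EoP and 0 in Eos, while a peak lay over the start listed in the files in GMP and 16 and 12 bases past it in EoP and Eos.

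Of the 6 vesicle SNAREs tested, Vamp4 rose at both steps, and Vamp5 fell at the first and rose at the second. Vamp8, the main VAMP of mast cell and platelet granules, had 122 and 108 CPM in GMP, 131 and 113 in EoP, and 159 and 147 in Eos. Vamp3 of recycling endosomes had 124 and 137, 139 and 122, and 153 and 160 CPM, and Vamp2 had 27.4 and 31.7, 31.7 and 26.8, and 37.0 and 50.5. None of these 3 was called at either step, and their GMP and EoP libraries overlapped. Their log2 changes lay between -0.01 and 0.08 at the first step and between 0.26 and 0.58 at the second, each with an SE of 0.20 to 0.25. Vamp8 was nevertheless the member with the highest or second highest level per length in each cell type, at 49.8 ± 5.64 RPKM in GMP, 64.7 in EoP and 57.7 in Eos (SD, n = 2). Vamp4, of the trans-Golgi network, rose at both steps, from 23.2 and 19.7 CPM to 32.3 and 38.9 and then 64.1 and 79.4. Its first call was lost without any GMP or EoP library (adjusted p 0.104 to 0.170) and its second without EoP 1 (0.87, adjusted p = 0.0967). Vamp5, best known from muscle, had 12.7 and 11.3 CPM in GMP, 2.83 and 4.97 in EoP, and 12.6 and 13 in Eos, so that EoP lay below both other groups. It fell by 1.61 on the log2 scale (SE 0.40, adjusted p = 0.0168) and rose by 1.69 ± 0.40 (adjusted p = 0.00899). These calls were lost without GMP 1, GMP 2 or EoP 1 (-1.53 to -1.24, adjusted p 0.0936 to 0.118) and without EoP 1 (1.34, adjusted p = 0.0763).

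**Figure D3:**
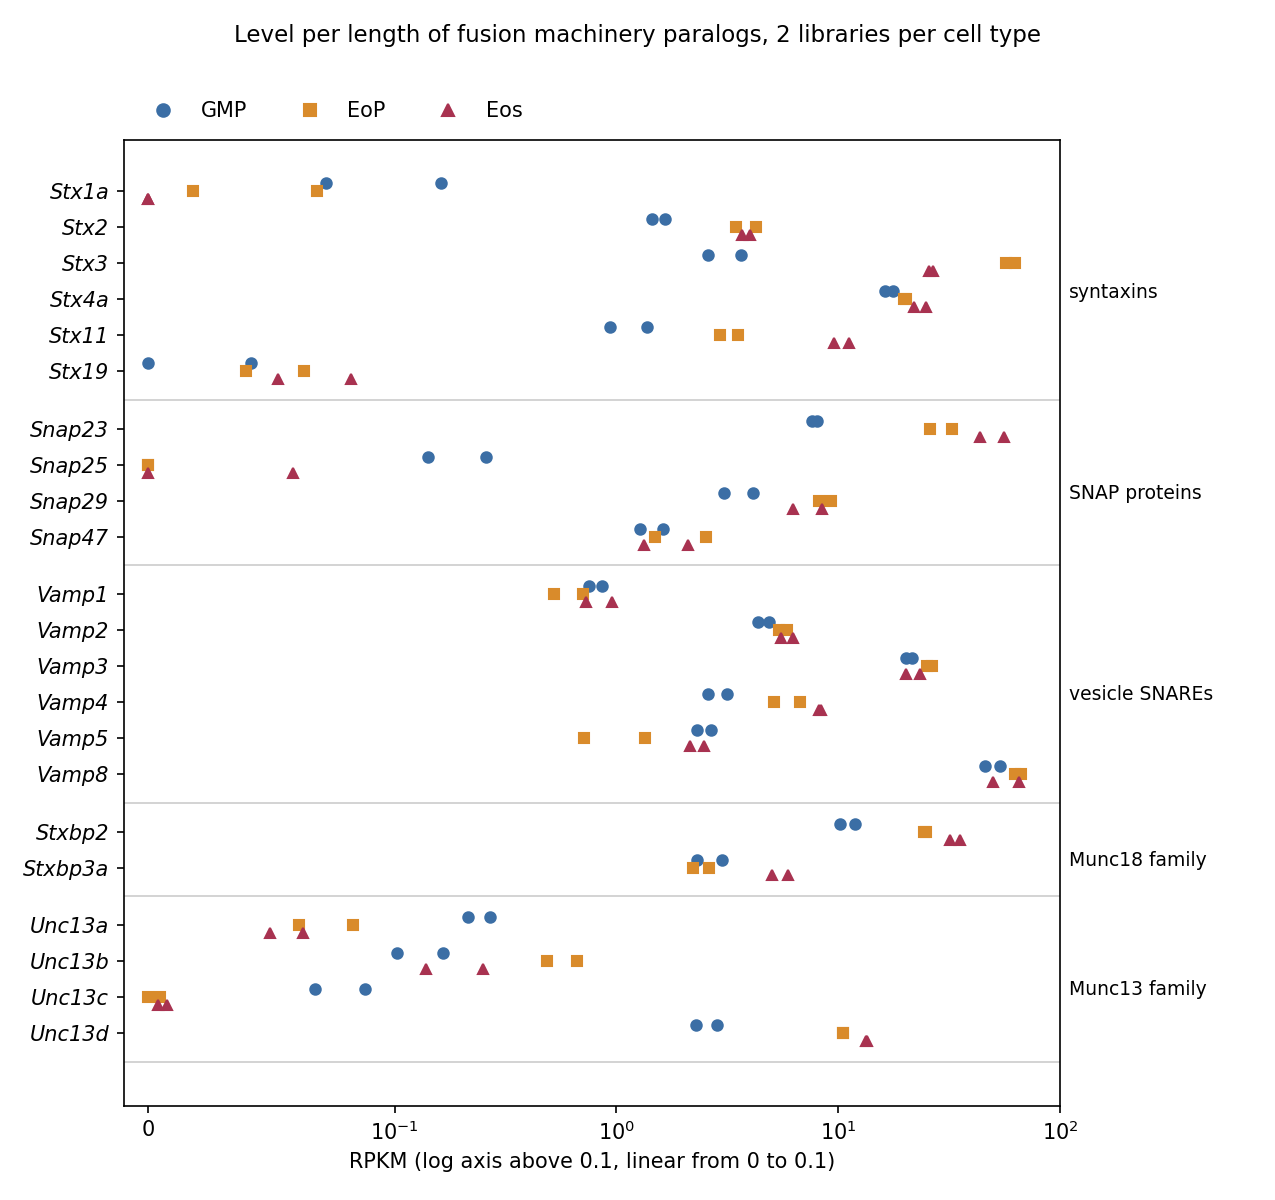
Levels per length (RPKM, 1 point per library; log axis above 0.1 and linear below) of the syntaxins, SNAP proteins, vesicle SNAREs, Munc18 and Munc13 family members of the fusion machinery. The neuronal forms Stx1a, Snap25 and Unc13a lie below 1 RPKM in every library, while Stx3, Snap23, Vamp8 and Unc13d are the highest of their families in EoP and Eos, with Stx4a close to Stx3 in Eos.

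Among the syntaxin-binding proteins reported, Stxbp2 rose at both steps, Stxbp5 at the first and Stxbp3a at the second, while Stxbp5l and Stxbp6 fell at the first and Stxbp4 at the second. Stxbp2 (Munc18-2), the partner of Stx3 and Stx11 in granule exocytosis, had 93.3 and 82.5 CPM in GMP, 164 and 154 in EoP, and 267 and 359 in Eos. The groups did not overlap, and the log2 changes were 0.85 ± 0.23 (adjusted p = 0.0212) and 0.98 ± 0.23 (adjusted p = 0.00818). The first call was lost without any GMP or EoP library (0.83 to 1.08, adjusted p 0.0563 to 0.121), and the second without either EoP library (0.96 and 1.01, adjusted p 0.0586 to 0.0715). Stxbp3a (Munc18-3), the partner of Stx4, had 20.8 and 16.7 CPM in GMP, 13.3 and 14.4 in EoP, and 37.2 and 53.6 in Eos, and rose at the second step by 1.71 ± 0.28 (adjusted p = 0.00149), also in each leave-out.

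Stxbp5 (tomosyn), which can bind syntaxin and SNAP proteins in place of a VAMP and so restrain fusion, was highest in EoP, as Stx3 was. It had 202 and 166 CPM in GMP, 692 and 797 in EoP, and 509 and 588 in Eos. The EoP libraries were the highest. The rise at the first step was 2.02 ± 0.25 (adjusted p = 0.000669) and was called without each library, and the second-step difference of -0.44 ± 0.24 was not called (adjusted p = 0.166). Stxbp4, a binding partner of Stx4, fell from EoP (12.4 and 14.7 CPM) to Eos (6.53 and 5.26) by 1.20 on the log2 scale (SE 0.35, adjusted p = 0.0236), and the call was lost without EoP 1, EoP 2 or Eos 2 (-1.33 to -1.04, adjusted p 0.0611 to 0.135). Stxbp5l, the neuronal tomosyn, had 51 counts over the GMP libraries and 0 in EoP and Eos, and was at least 22.9-fold lower in EoP. That call was lost without GMP 1 or GMP 2 (adjusted p 0.0627 and 0.120). Stxbp6 (amisyn) had 5.08 and 3.28 CPM in GMP and at most 0.935 in the other 4 libraries, and its fall was lost without GMP 1, GMP 2 or EoP 2 (-4.35 to -2.94, adjusted p 0.105 to 0.191).
Stxbp2, chr8:3630859-3631108, plus strand: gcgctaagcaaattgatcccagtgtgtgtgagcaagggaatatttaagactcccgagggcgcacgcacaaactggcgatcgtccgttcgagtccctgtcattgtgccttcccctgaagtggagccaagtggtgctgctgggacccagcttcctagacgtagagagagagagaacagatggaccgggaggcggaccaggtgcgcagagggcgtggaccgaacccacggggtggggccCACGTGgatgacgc
This stretch before Stxbp2 is shown for the 1 CACGTG (14 to 9 bases before the start), a motif found in 6.02% of all windows of this length. A GMP peak covered all 250 bases, while the nearest EoP and Eos peaks began 2 and 9 bases past the RefSeq start. The fold enrichment the authors gave these 3 peaks was 5.01, 13.9 and 16.1, again from lists that cannot be scaled to one another.

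Of the 4 Munc13 genes, Unc13d (Munc13-4), the priming factor of blood cell granules and a Rab27 effector, was the one at over 1 RPKM. It had 26.1 and 33.8 CPM in GMP, 104 and 94.8 in EoP, and 164 and 198 in Eos, without overlap. It rose by 1.73 ± 0.23 (adjusted p = 0.0011), a call kept in each leave-out, and then by 0.86 ± 0.22 (adjusted p = 0.0134), a call lost without either EoP library (0.82 and 0.92, adjusted p 0.0718 and 0.101). Unc13b, a form shared by neurons and other secretory cells, was highest in EoP, with 2.90 and 1.79 CPM in GMP, 7.55 and 9.51 in EoP, and 2.61 and 5.85 in Eos. Its first-step rise of 1.85 ± 0.56 (adjusted p = 0.0343) was lost without any GMP or EoP library (1.70 to 2.26, adjusted p 0.0792 to 0.154). The neuronal Unc13a had 4.96 and 6.41 CPM in GMP and 1.11 to 1.87 in the other 4 libraries, and its fall by 2.04 on the log2 scale (SE 0.60, adjusted p = 0.0311) was likewise lost without any GMP or EoP library (-2.30 to -1.59, adjusted p 0.0952 to 0.219). Unc13c, also neuronal, had 28 counts over the GMP libraries and 1 over the EoP libraries, a ratio of 37.7 with a counting interval of 6.23 to 1540, and its call was lost without any GMP or EoP library (adjusted p 0.0778 to 0.160).

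Rab27a rose from EoP to Eos, and of its synaptotagmin-like effectors Sytl1 rose and Sytl2 fell at that step. Rab27a, the GTPase that docks lysosome-related granules, had 143 and 147 CPM in GMP, 217 and 193 in EoP, and 329 and 532 in Eos. The groups did not overlap. The first difference of 0.50 ± 0.26 was not called (adjusted p = 0.186), and the second-step rise was 1.07 ± 0.26 (adjusted p = 0.0104), lost without EoP 1 or EoP 2 (1.14 and 1.01, adjusted p 0.0560 and 0.0815). Sytl1, a synaptotagmin-like protein that binds Rab27, rose at both steps, from 10.4 and 8.34 CPM to 30.1 and 19.6 and then 106 and 158. Its changes were 1.40 ± 0.31 (adjusted p = 0.0109), lost without GMP 1, GMP 2 or EoP 1 (1.09 to 1.58, adjusted p 0.0720 to 0.0801), and 2.41 ± 0.30 (adjusted p = 0.000358), kept in each leave-out. Rab27b, the paralog of Rab27a, had 2.90 and 4.17 CPM in GMP, 1.89 and 6.17 in EoP, and 0.603 and 0 in Eos. It fell at the second step (-3.63 ± 1.02, adjusted p = 0.020), and this was lost without EoP 2 or Eos 2 (-2.50 and -2.73, adjusted p 0.153 and 0.0578). EoP 2 was also the library with the higher sum of mast cell and basophil markers, and their part in this fall was not tested. Of the other Rab27 effectors, Sytl2 fell at the second step from 2.59 and 5.40 CPM to 0.201 and 0.585, lost without EoP 2 (-2.69, adjusted p = 0.0761), and Sytl3 and Sytl4 were not called at either step.
Rab27a, chr9:73044560-73044809, plus strand: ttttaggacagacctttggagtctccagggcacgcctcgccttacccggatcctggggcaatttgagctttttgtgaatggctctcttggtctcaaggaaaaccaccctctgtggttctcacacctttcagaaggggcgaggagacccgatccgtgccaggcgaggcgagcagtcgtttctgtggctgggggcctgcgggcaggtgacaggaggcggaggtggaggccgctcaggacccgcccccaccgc
Sytl1, chr4:133263088-133263337, minus strand: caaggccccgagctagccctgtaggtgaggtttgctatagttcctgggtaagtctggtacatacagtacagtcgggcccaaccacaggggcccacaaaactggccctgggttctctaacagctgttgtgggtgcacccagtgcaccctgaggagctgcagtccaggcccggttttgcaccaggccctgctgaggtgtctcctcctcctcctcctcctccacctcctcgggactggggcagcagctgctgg
These windows are shown because they hold none of the 5 motifs and differ in CpG, with 14 before Rab27a and 4 before Sytl1 at 62.0% and 61.6% G and C. Peaks overlapped the Rab27a window in all 3 lists (157, 54 and 250 bases in GMP, EoP and Eos) and the Sytl1 window only in EoP (42 bases).

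Among the other 8 tested Rabs of regulated secretion, Rab37 and Rab44 rose at the first step, Rab3d and Rab8b at the second, and Rab3c fell at the first. Rab37, a GTPase of mast cell and neutrophil granules, had 21.5 and 17.6 CPM in GMP, 79.2 and 107 in EoP, and 79.3 and 102 in Eos. EoP and Eos overlapped, and both lay above GMP. It rose by 2.25 ± 0.26 at the first step (adjusted p = 0.000494), in each leave-out, and the second-step difference was -0.04 ± 0.24. Its counts lay on 2 transcripts. The one that starts at chr11:115091432 had 30 and 79 counts in GMP, 0 and 0 in EoP, and 0 and 26 in Eos, and the one that starts at chr11:115154179 had 148 and 39, 672 and 1245, and 790 and 843. H3K4me3 peaks covered the downstream start in all 3 lists, while the nearest peak to the upstream start was 62414 bases away in GMP, 62544 in EoP and 41833 in Eos.

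Rab44, a large Rab with roles in mast cell granule release, had 123 and 157 CPM in GMP, 266 and 262 in EoP, and 229 and 326 in Eos. It rose at the first step by 0.92 ± 0.25 (adjusted p = 0.0215), a call lost without any GMP or EoP library (0.76 to 1.25, adjusted p 0.0602 to 0.206). Rab3d, of secretory granules in exocrine and mast cells, had 61.8 and 51.1, 77.2 and 88.0, and 130 and 134 CPM, and rose at the second step by 0.67 ± 0.21 (adjusted p = 0.0311), lost without any GMP or EoP library (0.57 to 0.79, adjusted p 0.0577 to 0.224). Rab8b, which acts in transport to the cell surface, rose from 117 and 126 CPM in EoP to 264 and 310 in Eos, by 1.24 ± 0.22 (adjusted p = 0.00204, kept in each leave-out). Rab3a, the neuronal Rab, stayed between 0.968 and 4.25 CPM and was not called at either step. Both of its listed transcripts had the same counts in every library, so these values may hold the same reads more than once. Rab3c fell at the first step from 4.24 and 2.83 CPM to 0.590 and 0.686, lost without any GMP or EoP library (-2.55 to -2.11, adjusted p 0.148 to 0.317), and Rab8a and Rab26 were not called at either step.

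The Rabs of early and recycling endosomes included 4 of 12 that rose at each step (33.3%, against 9.49% and then 19.1% of all genes). Rab11a, the central GTPase of recycling endosomes, had 39.6 and 33.4 CPM in GMP, 136 and 109 in EoP, and 176 and 268 in Eos. The libraries of the 3 groups did not overlap. It rose by 1.75 ± 0.27 (adjusted p = 0.00227), in each leave-out, and by 0.86 ± 0.26 (adjusted p = 0.0258), lost without GMP 1, EoP 1, EoP 2 or Eos 2 (0.52 to 1.01, adjusted p 0.0516 to 0.172). Rab4a, of fast recycling, was highest in EoP, with 4.24 and 4.32 CPM in GMP, 13.2 and 10.2 in EoP, and 3.82 and 5.14 in Eos. It rose by 1.45 ± 0.42 (adjusted p = 0.0304) and fell by 1.38 on the log2 scale (SE 0.42, adjusted p = 0.0267). The first call was lost without any GMP or EoP library (1.28 to 1.80, adjusted p 0.0519 to 0.158) and the second without EoP 1, EoP 2 or Eos 1 (-1.54 to -1.20, adjusted p 0.0585 to 0.142). Its paralog Rab4b rose at both steps, from 19.1 and 18.2 CPM to 34.1 and 30.7 and then 60.3 and 67.4, with the first call lost without any GMP or EoP library (adjusted p 0.0587 to 0.144) and the second without either EoP library (adjusted p 0.0513 and 0.0695). Rab21, an early endosomal Rab of integrin traffic, rose at the first step from 96.7 and 88.0 to 159 and 156 CPM (0.77 ± 0.20, adjusted p = 0.0206), lost without any GMP or EoP library (adjusted p 0.0654 to 0.126). Rab11b and Rab35 were the other 2 that rose at the second step, to 77.4 and 104 CPM and to 35.9 and 59.5 CPM in Eos, and both calls were lost without EoP 1, EoP 2 or Eos 2, that of Rab11b also without either GMP library (adjusted p 0.0627 to 0.273 and 0.0826 to 0.137). The early endosome Rabs Rab5a and Rab5c were not called at either step.

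Of the 5 proteins that link Rab11 vesicles to motors and membranes, Rab11fip1 and Rab11fip4 rose in Eos. Rab11fip1, the Rab-coupling protein, had 25.5 and 23.7 CPM in GMP, 40.5 and 43.6 in EoP, and 252 and 384 in Eos. The Eos libraries stood well above the other 4. The changes were 0.77 ± 0.25 (adjusted p = 0.0451), lost without any GMP or EoP library (0.84 to 0.89, adjusted p 0.112 to 0.193), and 2.92 ± 0.26 (adjusted p = 5.67e-05), kept in each leave-out. Rab11fip4 had 1.21 and 2.98, 3.66 and 2.66, and 26.3 and 31.6 CPM and rose at the second step by 3.20 ± 0.44 (adjusted p = 0.000661), kept as well. Rab11fip2, Rab11fip3 and Rab11fip5 were not called at either step, and whether their changes differ from those of the other pair was not tested. A promoter peak of H3K4me3 was listed for Rab11fip4 in GMP and Eos and not in EoP. Of the other effectors and regulators among the 9 tested, Rab3gap1 rose at the first step (lost without any GMP or EoP library, adjusted p 0.0887 to 0.143), and Rab3il1 rose at the second from at most 0.354 CPM to 1.21 and 2.69 (lost without every library except Eos 1, 2.43 to 4.28, adjusted p 0.0669 to 0.195).

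The exocyst, the 8-subunit tether of vesicles at the plasma membrane, showed no called change from GMP to EoP in any of 10 tested subunits and related genes. By edgeR and by DESeq2, 0 of 10 passed after adjustment and 0 of 10 had an unadjusted p under 0.05, and the median log2 change was 0.10. From EoP to Eos, Exoc6, Exoc6b and Exoc8 rose (30.0%, against 19.1% of all genes). Exoc6b, a paralog of the Exoc6 subunit, had 22.6 and 27.7 CPM in GMP, 16.9 and 23.5 in EoP, and 57.8 and 94.9 in Eos. Its GMP and EoP libraries overlapped and its Eos libraries were higher, by 1.92 ± 0.30 on the log2 scale against EoP (adjusted p = 0.00125, kept in each leave-out). Exoc6 rose by 0.84 ± 0.21 to 158 and 199 CPM in Eos, lost without either EoP library (0.81 and 0.88, adjusted p 0.0776 and 0.0982), and Exoc8 by 1.23 ± 0.29 to 48.1 and 74.8 CPM, lost without EoP 1 (1.09, adjusted p = 0.0757). Exoc1, Exoc2, Exoc3, Exoc4, Exoc5 and Exoc7 were not called at either step, with log2 changes of -0.37 to 0.45 and then -0.04 to 0.44. For Eos against GMP 6 of the 10 rose (60.0%, against 22.7% of all genes) and Exoc3l, a low gene related to Exoc3, fell. With counts scaled to library size alone, Exoc6b was still called there. Exoc1, Exoc2, Exoc3, Exoc6 and Exoc8 then had log2 changes of 0.15 to 0.61 and were not called. With the scaling used elsewhere, Exoc6, Exoc6b and Exoc8 were kept for Eos against GMP in each leave-out. Exoc1 (0.73 ± 0.24) was lost without GMP 2 (0.68, adjusted p = 0.132), Exoc2 (0.84 ± 0.22) without GMP 1 (0.71, adjusted p = 0.109) and Exoc3 (0.84 ± 0.23) without GMP 1 (0.69, adjusted p = 0.119). The fall of Exoc3l was lost without every library except Eos 1 (-2.39 to -1.58, adjusted p 0.0595 to 0.227).

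Of 10 tested Rabs of late endosomes and lysosomes, Rab34, Rab36 and Rab9b fell at the first step (30.0%, against 17.1% of all genes). All of these passed the filter on low counts through the GMP libraries alone, so their falls and this share are not independent of the filter. The means of these genes in GMP were 2.20, 3.59 and 2.4 CPM, and Rab34 had the same counts on both of its listed transcripts. Each call was lost without GMP 2, EoP 1 or EoP 2. Without GMP 1 that of Rab36 was also lost, and Rab34 and Rab9b were too low to be tested. Rab7l1 (Rab29, a lysosomal and Golgi Rab) rose at the second step, from 14.5 and 13.6 to 36.2 and 45.8 CPM (1.54 ± 0.28, adjusted p = 0.00274, kept in each leave-out). Rab7, the GTPase of late endosomes, had 77.6 and 70.6 CPM in GMP, 109 and 106 in EoP, and 112 and 182 in Eos and was not called at either step. It rose for Eos against GMP (0.99 ± 0.25, adjusted p = 0.0096), a call lost without GMP 1 or GMP 2 (1.06 and 1.08, adjusted p 0.0562 and 0.0524). By length it was the highest or second highest member in each cell type, at 40.4, 72.2 and 68.2 RPKM. Rab32, which serves lysosome-related organelles, ranged from 120 to 190 CPM with overlapping GMP and EoP libraries and was not called. Its paralog Rab38 had 40.5 and 46.8 CPM in GMP, 20.5 and 15.5 in EoP, and 14.7 and 3.62 in Eos. Neither step was called for Rab38 (adjusted p = 0.0758 and 0.149), while Eos against GMP gave -2.24 ± 0.50 (adjusted p = 0.00509), in each leave-out. In that comparison 45 members rose (39.5%) and 22 fell (19.3%), against 22.7% and 31.8% of all genes, and the median was 0.45 against -0.39. Both Eos libraries lay above both GMP libraries for 61 members (53.5%, against 33.3% of all genes) and below for 31 (27.2%, against 49.7%).

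Among the 18 tested Rabs of the endoplasmic reticulum and Golgi, Rab18, Rab33b, Rab39 and Rab43 rose at the first step (22.2%, against 9.49% of all genes). Rab13 and Rab39b fell there (11.1%, against 17.1%). At the second step Rab2a, Rab33b, Rab39 and Rab43 rose (22.2%, near the 19.1% of all genes). Rab39, a Rab of Golgi and phagosome traffic in macrophages, had the largest second-step change of the 29 members that rose there. It had 1.94 and 2.09 CPM in GMP, 4.48 and 5.23 in EoP, and 41.9 and 72.1 in Eos, without overlap. The changes were 1.27 ± 0.39 (adjusted p = 0.0355), lost without any GMP or EoP library (1.23 to 1.48, adjusted p 0.0889 to 0.190), and 3.54 ± 0.34 (adjusted p = 0.0001), kept in each leave-out. Rab33b, a Golgi Rab that binds the autophagy factor Atg16l1, rose at both steps, from 10.2 and 14.5 CPM to 22.3 and 20.7 and then 53.8 and 63.5. Its first call was lost without any GMP or EoP library (0.58 to 1.23, adjusted p 0.0599 to 0.307) and its second was kept (1.45 ± 0.26, adjusted p = 0.00218). Rab43 had 44.7 and 47.8, 88.0 and 89.3, and 119 and 150 CPM, with the first call lost without GMP 1, GMP 2 or EoP 1 (adjusted p 0.0648 to 0.122) and the second without every library except Eos 1 (adjusted p 0.0874 to 0.219). The calls of Rab18, Rab2a, Rab13 and Rab39b were lost as well in 3 or more leave-outs (adjusted p 0.0508 to 0.290). Rab1, of transport from the endoplasmic reticulum to the Golgi, had 201 to 250 CPM in all 6 libraries and was not called at either step. Among the endosomal and Golgi syntaxins, Stx12 rose at the first step and Stx7 and Stx16 at the second. Stx7, of late endosome fusion, rose from 48.0 and 50.7 CPM in EoP to 108 and 130 in Eos (1.27 ± 0.26, adjusted p = 0.00424, kept in each leave-out). Stx12 was lost without any GMP or EoP library (0.87 to 0.96, adjusted p 0.109 to 0.213) and Stx16 without either EoP library (0.66 and 0.86, adjusted p 0.195 and 0.0997).

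**Figure D4:**
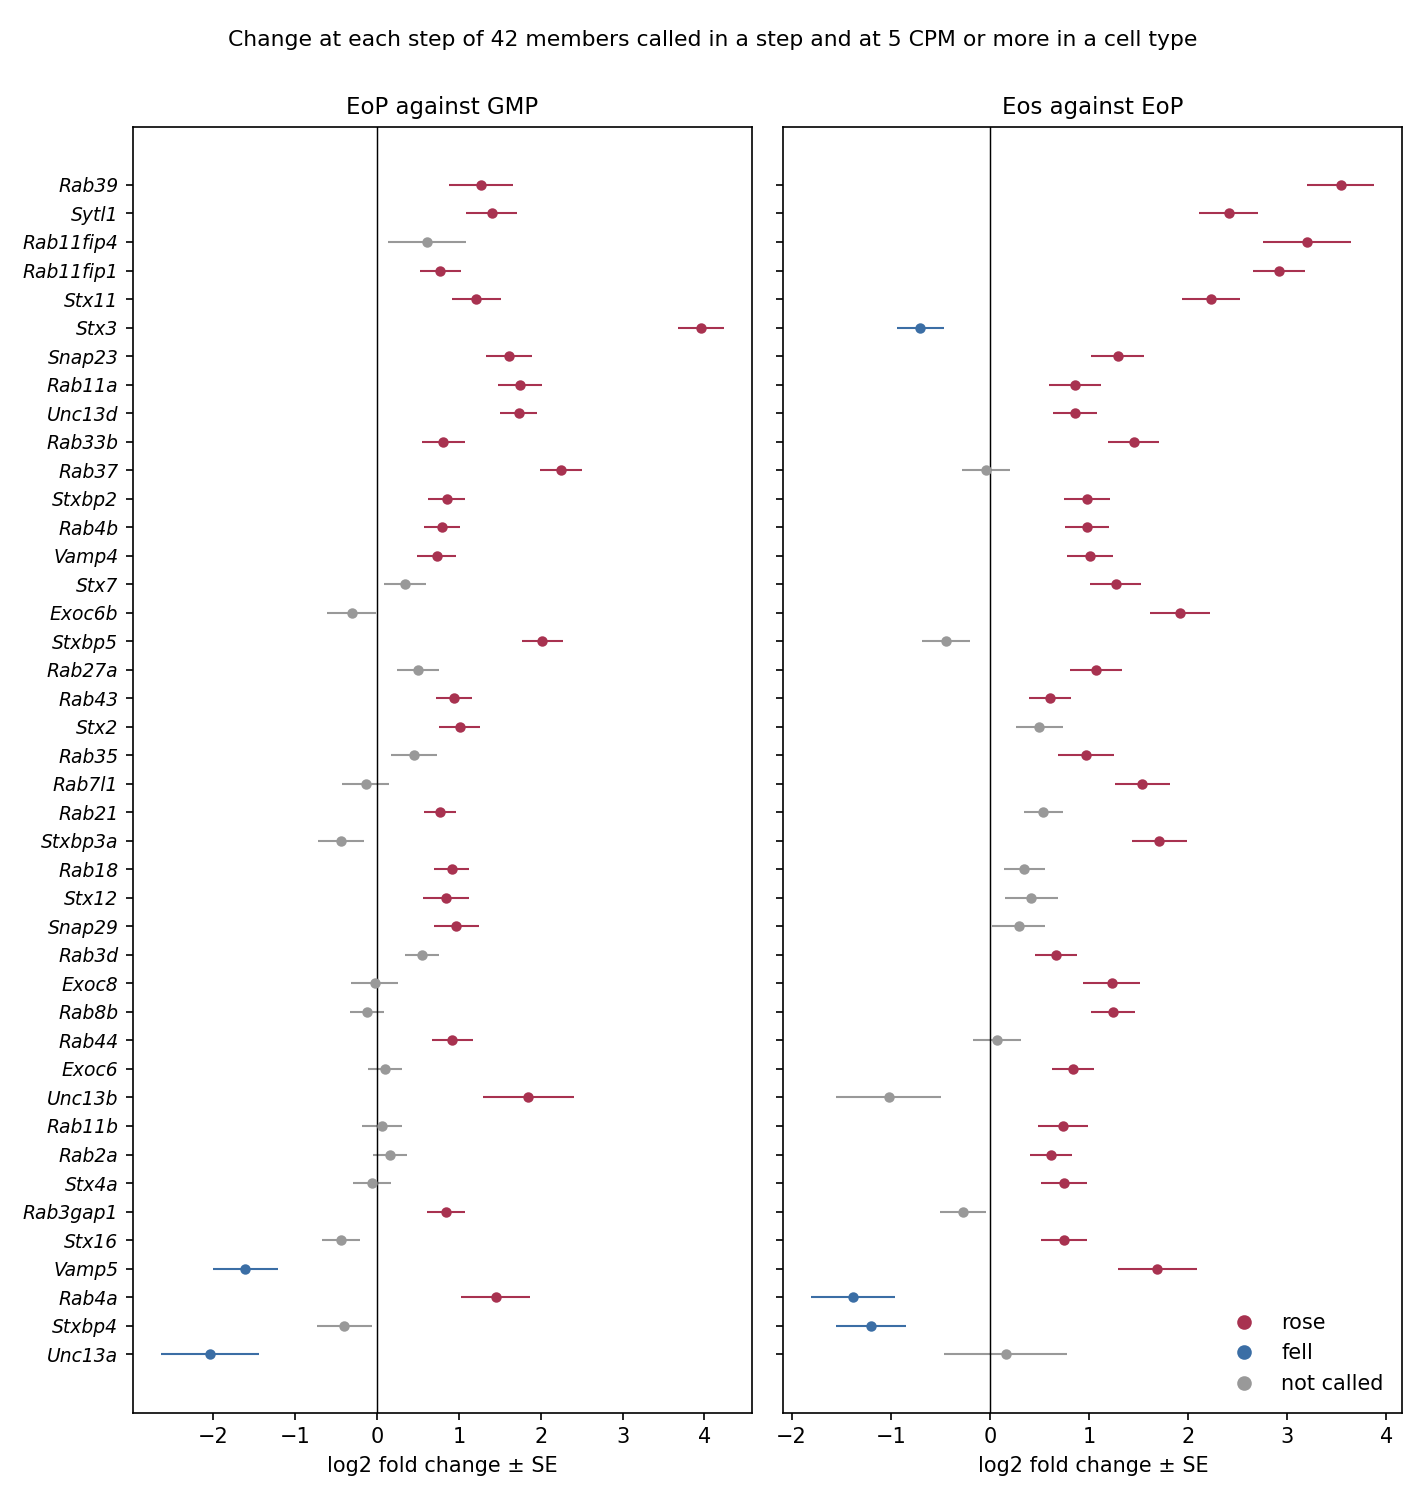
Log2 fold change with its standard error at each step (left, EoP against GMP; right, Eos against EoP) for 42 members called at a step that reached a mean of 5 CPM in a cell type, coloured by edgeR call. Stx3 stands out on the left at 3.96, and Rab39, Rab11fip4 and Rab11fip1 on the right at 2.92 to 3.54.

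The synaptotagmins, calcium sensors of neuronal release, were scarcely present. Of the 17 listed, 8 were tested, and Syt5, Syt6, Syt9, Syt12 and Syt13 fell from GMP to EoP (62.5%, against 17.1% of all genes). The highest level of any of the 8 was 3.15 CPM, that of Syt5 in GMP 1. Syt5 had 40 counts over both GMP libraries and 0 over both EoP libraries, which makes it at least 17.9-fold lower in EoP, and the bounds for Syt6, Syt12 and Syt13 were 10.3-fold, 7.17-fold and 8.07-fold. Over the 8 genes the median log2 change was -5.15 as fitted and -3.19 with those 4 genes at their bounds. The 5 that fell had at most 1 count over both EoP libraries and passed the filter on low counts through the GMP libraries alone. Their falls and this median are therefore not independent of the filter. Each of the 5 calls was lost without EoP 1 or EoP 2, and that of Syt5 also without GMP 1 or GMP 2. Without either GMP library, Syt6, Syt9, Syt12 and Syt13 were too low to be tested. Rab34, Rab36, Rab9b, Rab39b, Rab3c, Snap25, Stxbp5l, Stxbp6 and Unc13c also passed the filter through the GMP libraries alone. Their falls are not independent of it either. More widely, 15 of the 17 members that fell at this step had a mean under 5 CPM in GMP, and none of the 17 calls was kept without each library in turn. Calls among all genes also became fewer at this step without any GMP or EoP library, so lost calls are not particular to the members. The share of all called genes kept in each leave-out was not computed. The GMP libraries also listed more genes of every kind with a count (19677 and 20542) than the EoP libraries did (14350 and 14970), and the part of this in the falls was not tested. Of the 24 first-step rises, 5 were kept in each leave-out (Rab11a, Rab37, Stx3, Stxbp5 and Unc13d), and of the 29 second-step rises 11.

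Lists of genes that regulate Rab proteins or build their target organelles were counted in the same way, against all-gene shares of 9.49% higher and 17.1% lower at the first step and 19.1% and 17.7% at the second. Of 27 tested exchange factors and effectors, 5 rose (18.5%) and 4 fell (14.8%) from GMP to EoP, while at the second step 16 rose (59.3%) and 2 fell (7.41%), and the list's median there was 1.09 against 0.02 for all genes. Dennd3, an exchange factor for Rab12, rose from a mean of 17.8 CPM in EoP to 201 in Eos (3.50 ± 0.32, adjusted p = 7.28e-05). Of 31 GTPase-activating proteins with a TBC domain, 5 rose (16.1%) and 1 fell (3.23%) at the first step and 10 rose (32.3%) and 4 fell (12.9%) at the second. Tbc1d10c, which is made in blood cells, rose at both, with means of 17.0, 47.9 and 289 CPM, and its first call was lost without GMP 1 (1.38, adjusted p = 0.0623). Of 8 genes that attach or recycle prenylated Rabs, 2 rose (25%) at the first step, and 2 rose (25%) and 1 fell (12.5%) at the second.

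Of 23 genes that build lysosome-related organelles, 3 rose (13%) and none fell at the first step, and 5 rose (21.7%, near the 19.1% of all genes) and 1 fell (4.35%) at the second. Lyst, the gene of Chediak-Higashi syndrome with its giant granules, had means of 239 CPM in GMP, 162 in EoP and 2050 in Eos, and rose at the second step by 3.66 ± 0.35 (adjusted p = 8.71e-05). Nbeal2, the gene of gray platelet syndrome, rose from a mean of 134 CPM in EoP to 677 in Eos (2.34 ± 0.26, adjusted p = 0.000194). Of 27 other SNAREs and recycling factors of the NSF group, 1 rose and 1 fell (3.70% each) at the first step, and 4 rose (14.8%) and 5 fell (18.5%) at the second. In that list Sec22c (0.88 ± 0.22) was the rise at the first step, lost without any GMP or EoP library (adjusted p 0.0659 to 0.110), and Txlna, a syntaxin-binding protein, fell at the second from a mean of 117 CPM to 40.9 (-1.51 ± 0.24, adjusted p = 0.00122).

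Promoter peaks of H3K4me3 were listed for 114 of the 138 members in GMP (82.6%), 95 in EoP (68.8%) and 97 in Eos (70.3%), against 56.6%, 48.3% and 50.6% of all 23471 genes. Among the genes tested for RNA the shares were closer, at 90.4%, 79.8% and 81.6% of members against 81.4%, 74.1% and 76.2%. The lists held 30645, 19816 and 33847 peaks, 1 library each, so no test between cell types was possible. Peaks in all 3 lists marked 90 members, and 24 had none in any list. The other 24 members had a peak in GMP with or without 1 other list, and no member had one only in EoP, only in Eos or in both of these alone. These patterns rest on the full lists, which differ in length, and were not counted over all genes. With each list cut to its 19816 top-ranked peaks, the GMP list marked 102 members, the EoP list 95 and the Eos list 90. Whether a peak in GMP alone is more common among members than among all genes was not tested. The 12 marked in GMP alone include Stxbp5l, Stxbp6, Syt12 and Rab39b, which fell from GMP to EoP. Of the rest, 6 were not tested for RNA, and Syt11 and Syt2 were not called at that step. Other members that fell there had peaks in all 3 lists (Rab13, Rab3c and Vamp5) or in none (Snap25, Syt5, Syt6, Syt13 and Unc13c). Rab34 and Unc13a had them in GMP and EoP, and Rab36, Rab9b and Syt9 in GMP and Eos. A link between peaks and RNA was not tested. Summits lay downstream of the start more often than upstream, with a median position of 206 bases into the transcript in GMP, 250 in EoP and 211 in Eos.

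**Figure D5:**
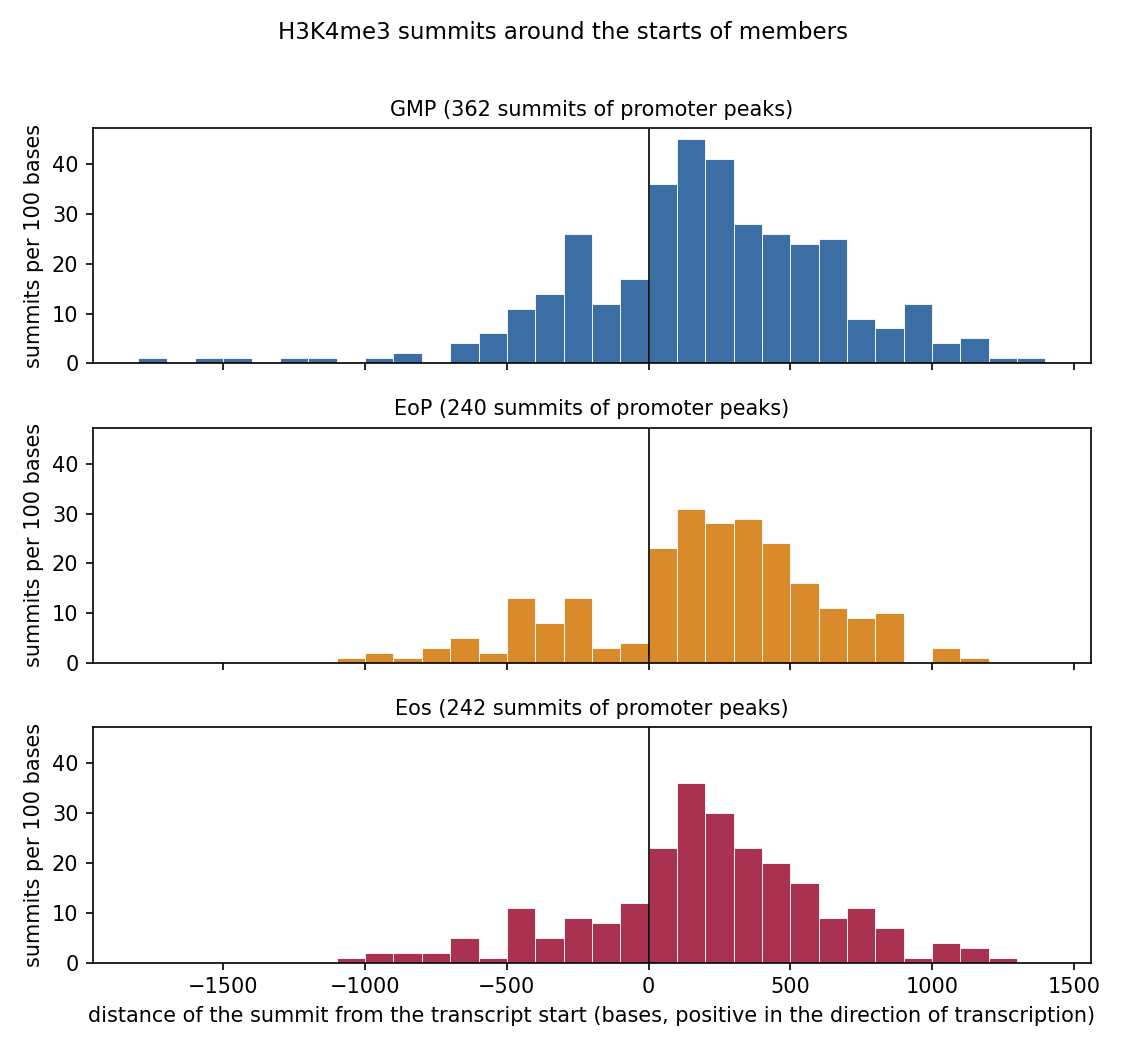
Position of each H3K4me3 summit in a promoter peak of a member, in bases from the start of the transcript the authors listed with that peak (positive in the direction of transcription). Bins are of 100 bases for the GMP (362 summits), EoP (240) and Eos (242) lists. Most summits lie after the start in each list, with 98, 55 and 58 of them before it.

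Rab7 and Rab44 were listed without a promoter peak despite their high RNA levels. In both cases the start in the authors' files differed from the outermost RefSeq start, by 31580 bases for Rab7 and 20929 for Rab44. At the RefSeq start of Rab7, chr6:88045270, the lists held a peak of fold enrichment 4.60 in GMP, 6.61 in EoP and 8.42 in Eos, which the authors' tables annotate as intergenic and assign to Rpn1. It covered that start in GMP and Eos and ended 25 bases from it in EoP. At the RefSeq start of Rab44, chr17:29114128, peaks lay 72, 23 and 9 bases away.
Rab7, chr6:88045271-88045520, minus strand: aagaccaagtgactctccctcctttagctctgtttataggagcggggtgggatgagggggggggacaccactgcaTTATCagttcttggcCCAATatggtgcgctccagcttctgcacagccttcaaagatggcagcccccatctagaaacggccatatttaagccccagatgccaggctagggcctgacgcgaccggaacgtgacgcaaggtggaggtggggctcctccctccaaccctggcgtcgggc
These 250 bases before the outermost Rab7 start are shown because the start used in the files points elsewhere. They are 59.2% G and C with 10 CpG, and hold a GATAA on the reverse strand and a CCAAT.

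RefSeq (GRCm38.p6, the assembly of mm10) gave a promoter window of 300 bases, 250 before and 50 after the start, for 111 of the 138 members. Over these the median G and C content was 63.3%, against 52.7% for all 32851 windows, and the median observed-to-expected CpG ratio was 0.737 against 0.384. The ratio had a median of 0.750 in the 79 matched members with a peak in all 3 lists, 0.635 in the 19 with a peak in 1 or 2 lists and 0.332 in the 13 with none. Peaks were classed at the starts in the files. Among the 13, the windows of Rab7, Unc13c and Sytl3 lay 31327, 35470 and 30014 bases from those starts. The Rab7 window, with a ratio of 0.942, was overlapped by a peak in all 3 lists. GATAA was found in 16.2% of member windows and 25.4% of all windows, TTGCNNAA in 7.21% and 10.8%, GAGGAA in 23.4% and 28.3%, CACGTG in 11.7% and 7.15%, and CCAAT in 36.0% and 37.4%. These shares were not tested, and base composition differs between the 2 sets of windows.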

How the data were processed

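RNA was measured in 6 libraries and H3K4me3 in 3. Per the submitters' processing notes, STAR 2.4.0c, Bowtie 1.0.0 and mm10 were used, and their roles, the counting tool and the peak caller were not given in the sources used here. Per the file headers, the deposited RNA tables hold an estimated count and an RPKM value for each RefSeq transcript. The authors' peak tables hold, per summit, the pileup height, the −log10 p and q, the fold enrichment, a region class and a gene, per the file headers. The files give no depth for the H3K4me3 libraries.

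Counts and RPKM were summed over the transcript lines of a gene, and the counts rounded. Some genes, among them Rab18, Rab34, Rab3a and Syt3, had the same counts on both of their listed transcripts in every library. Their summed counts, CPM and RPKM may therefore hold the same reads more than once. Library sizes were scaled by TMM factors, and genes passing edgeR's filterByExpr (14324 of 23471) were tested with edgeR 4.0.16 (R 4.3.3) by quasi-likelihood on all 6 libraries together, cell type being the one factor, with Benjamini-Hochberg adjustment at 0.05. The fit had 3 residual degrees of freedom, so the depth and number of libraries limit the precision. On counts simulated for EoP against GMP, with 200 genes changed 4-fold among 13129 tested, the test recovered 178 of the 200 and made 8 false calls. The changed genes had a mean of over 20 counts a library, all genes shared 1 spread, and no wider shift between cell types was simulated. These rates therefore do not carry over to the low genes or to the scaling of the real libraries. Alternatives used DESeq2 1.42.0, limma 3.58.1 on log2(RPKM + 0.5) and log2(RPKM + 0.1), other filters and scalings, and each library left out in turn. Where that leaves 1 library in a group, its spread is assumed to be that of the other groups. A gene at 0 was compared against a floor of 3 counts over the group. Ratios of 1 to 3 counts have exact 95% intervals, which cover counting error only. Summit distances were computed from coordinates to the start of the transcript that the authors listed with each peak. Promoter windows came from RefSeq. No window was found for 27 members.

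The members and gene lists were chosen with earlier results of these data known. Named members were the up to 8 with the largest rise and fall per step among called members with at least 5 CPM and no overlap (4 for Eos against GMP), a set named whatever the values (among them Rab27a, Unc13d, Stx3, Snap23, Vamp8 and the exocyst), the 6 highest by RPKM in each cell type, and called members with a peak in some lists only. For partner lists up to 3 called genes per direction were eligible. Others (such as Stx2, Stx12, Stx16, Vamp4, Sytl2, Rab3c, Rab4b, Rab33b, Rab7l1, Rab8b, Rab11fip2 and Rab43) were named after their values were seen, to account for small counts. The values of a few genes are not reported here.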

Additional observations from a re-analysis of the deposited data

How the results depend on the processing

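No called member changed direction under any alternative. From GMP to EoP, the 24 members that rose became 7 with library size alone and 14 with at least 50 counts in 2 libraries, and ranged from 5 to 28 when 1 library was left out (5 without GMP 1, 7 without GMP 2, 6 without EoP 1, 10 without EoP 2). The 17 that fell became 26 with library size alone, 1 with at least 50 counts, 7 with the largest transcript line, 4 by DESeq2's Wald test and 1 on RPKM with either pseudocount, and ranged from 0 to 21 with a library left out (0 without GMP 1 or GMP 2, 2 without EoP 1 or EoP 2). From EoP to Eos, the 29 that rose became 13 on RPKM with either pseudocount and 11 without its filter, and ranged from 12 (without EoP 1) to 37. The 6 that fell became 1 with the largest transcript line and 10 on RPKM with a pseudocount of 0.5, and ranged from 2 (without EoP 2) to 6. For Eos against GMP, the 45 that rose became 26 with library size alone and ranged from 33 to 50 in leave-outs, and the 22 that fell became 5 with at least 50 counts, 12 with the largest line, 7 by DESeq2 and 5 on RPKM with either pseudocount, and ranged from 4 to 21. Stricter filters test fewer of the low genes that make up most falls, and the cause of the other shifts was not tested. At the first step, calls among all genes also became fewer without any GMP or EoP library.

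Same-numbered libraries did not deviate together (correlations -0.1386, -0.1068 and 0.04002 for the 3 pairs of cell types). The labels state no pairing, and the main fit used none. With 2 libraries a group, these correlations cannot exclude a weak pairing. With the replicate block, 18 members rose and 7 fell from GMP to EoP, 26 rose and 5 fell from EoP to Eos, and 41 rose and 12 fell for Eos against GMP. With the numbers crossed, chosen after seeing the data, 22 rose and 11 fell at the first step. Counts of members with a promoter peak moved by at most 12 with top-ranked peaks alone or windows of 1000 and 3000 bases.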
